A study of Mus musculus with 8 samples.

Results

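The genes described here are the enzymes and receptors of the eicosanoid pathway, 10 of the 27998 genes counted in the left ventricles of mice after myocardial ischemia–reperfusion (IR). They were taken by symbol, 5 from the prostaglandin arm (Ptgs1, Ptgs2, Ptges, Ptger2 and Ptger4) and 5 from the leukotriene arm (Alox5, Alox5ap, Ltc4s, Lta4h and Ltb4r1), and each symbol occurred once in both matrices. The study used droplet-based single-cell RNA sequencing, which counts unique molecular identifiers (UMIs) per gene and cell. Male mice on a C57BL/6 background, aged 10 to 12 weeks, had either sham surgery or 30 min of occlusion of the left anterior descending coronary artery with reperfusion, and hearts were collected at 6 h. Cells of 3 hearts were pooled into each sample, and 4 samples were recorded for each condition. The deposited data hold 1 matrix per condition, recorded as 0 h and 6 h, and no barcode could be traced to a sample. The 0 h matrix is called sham here. Whether 0 h stands for hearts taken 6 h after sham surgery is not settled by the records. Each condition has 1 library, so differences between conditions have no replicates behind them, and all intervals cover counting error only.

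Eicosanoids are signaling lipids made from arachidonic acid, which phospholipases A2 release from membranes. In the prostaglandin arm, cyclooxygenases (Ptgs1, the constitutive COX-1, and Ptgs2, the inducible COX-2) make PGH2, the synthase Ptges turns it into PGE2, and Ptger2 and Ptger4 are PGE2 receptors. In the leukotriene arm, 5-lipoxygenase (Alox5) works with its activating protein (Alox5ap) to make LTA4, which Lta4h converts to LTB4 and Ltc4s to the cysteinyl leukotriene LTC4. Ltb4r1 encodes the high-affinity LTB4 receptor, known for drawing neutrophils and other myeloid cells into inflamed tissue.

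On the mouse genome (GRCm38), the prostaglandin genes lie at chr2:36230426-36252272 (Ptgs1), chr1:150100031-150108227 (Ptgs2), chr2:30889471-30929863 (Ptges), chr14:44988195-45003820 (Ptger2) and chr15:5206661-5244187 (Ptger4). The leukotriene genes lie at chr6:116410077-116461178 (Alox5), chr5:149264767-149288153 (Alox5ap), chr11:50236461-50238616 (Ltc4s), chr10:93453411-93484875 (Lta4h) and chr14:55765962-55768494 (Ltb4r1). Ltb4r1 sits 823 bases from Ltb4r2, the gene of the low-affinity LTB4 receptor on the same strand, and the annotation gives them no shared exon base. Exons of Ptgs1, Ptger2, Ptger4, Alox5ap and Ltc4s overlap those of a neighbor on the opposite strand, by 148, 246, 1015, 189 and 268 bases for the longest overlap of each.

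Promoter windows of RefSeq (GRCm38.p6) were matched for 9 members. The 250 bases before the start are printed for 3 genes, chosen to show genes that separate the myeloid classes below. Ptgs2 (chr1:150099781-150100030, plus strand) and Ltb4r1 (chr14:55765712-55765961, plus strand) were both high in recruited cells and neutrophils of IR. Alox5 (chr6:116461179-116461428, minus strand) was high in resident macrophages and neutrophils. Capitals mark matches to the motifs named after the sequences.
Ptgs2: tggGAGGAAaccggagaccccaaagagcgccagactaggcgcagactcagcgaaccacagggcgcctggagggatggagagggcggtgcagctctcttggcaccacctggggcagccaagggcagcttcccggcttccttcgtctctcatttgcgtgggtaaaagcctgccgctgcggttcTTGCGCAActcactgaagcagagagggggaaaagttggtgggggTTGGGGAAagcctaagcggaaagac
Ltb4r1: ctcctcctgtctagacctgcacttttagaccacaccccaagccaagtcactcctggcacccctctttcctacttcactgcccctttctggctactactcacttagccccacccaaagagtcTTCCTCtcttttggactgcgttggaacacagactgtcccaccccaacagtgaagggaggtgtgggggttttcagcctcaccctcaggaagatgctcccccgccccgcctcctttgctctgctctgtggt
Alox5: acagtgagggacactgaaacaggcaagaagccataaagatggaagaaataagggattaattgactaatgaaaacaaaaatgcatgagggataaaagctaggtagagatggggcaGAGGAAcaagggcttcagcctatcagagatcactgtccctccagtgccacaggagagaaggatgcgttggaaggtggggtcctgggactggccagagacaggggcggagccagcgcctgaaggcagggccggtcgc

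Both strands were searched for the TATA box (TATAAA), the CCAAT box, the core of the cAMP response element (TGACG), the AP-1 motif (TGANTCA), the C/EBP motif (TTNNGNAA), the PU.1 core (GAGGAA), the E-box (CACGTG) and the NF-kB motif. GAGGAA was present in 6 of the 9 windows, the 3 printed ones among them, and in 23.3% of all 32851 windows of the same length. TTNNGNAA was found in Ptgs2 as TTGCGCAA (69 to 62 bases before the start) and TTGGGGAA (25 to 18 bases before it), in 3 of the 9 windows and in 36.8% of all windows. No member window held the letters searched for the TATA box, the cAMP response element, AP-1, the E-box or NF-kB, which occur in 12.4%, 17.8%, 6.75%, 6.02% and 7.25% of all windows. These are matches of letters and not binding sites. Only the 250 bases before each annotated start were searched, so absence there says nothing of letters past the start or further upstream. In the Ptgs2 window, 183 bases are also exon of the antisense transcript Ptgs2os.

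After filtering, 11377 barcodes in sham and 8260 in IR were kept, with a median of 4649 and 6636 UMIs. Barcodes were assigned to classes from marker genes, 640 in sham and 578 in IR stayed unclassed, and 30 barcode sequences occurred in both libraries. Macrophages and monocytes numbered 3642 in sham and 2028 in IR, neutrophils 273 and 2498, fibroblasts 3628 and 1630, B cells 1231 and 718, mural cells 783 and 175, T cells 415 and 267, endothelial cells 315 and 111, and NK cells 228 and 71. Macrophages and monocytes were divided by markers of resident cells (Mertk, Lyve1, Folr2, Timd4, Cd163, Cbr2, Gas6 and Vsig4) and of recruited cells (among them Ccr2, Ly6c2, Plac8, Chil3, Vcan, Thbs1 and Hp). This gave 2213 resident macrophages in sham and 664 in IR, 404 and 1104 recruited monocytes/macrophages, and 1025 and 260 undecided cells. Levels are given as CPM, the UMIs of a gene per 1000000 UMIs of the class. In these bulk sums, fewer cells that express a gene and less RNA per cell cannot be told apart. Median depth in a class was higher in IR than in sham for each of these classes (4978 and 10090 UMIs in resident macrophages, 1778 and 4079.5 in neutrophils), so shares of cells with a UMI are given after thinning each cell to 1000 UMIs. The recruited and resident labels describe marker UMIs, and 747 sham and 224 IR cells lay within 0.05 of the dividing score.

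**Figure D1:**
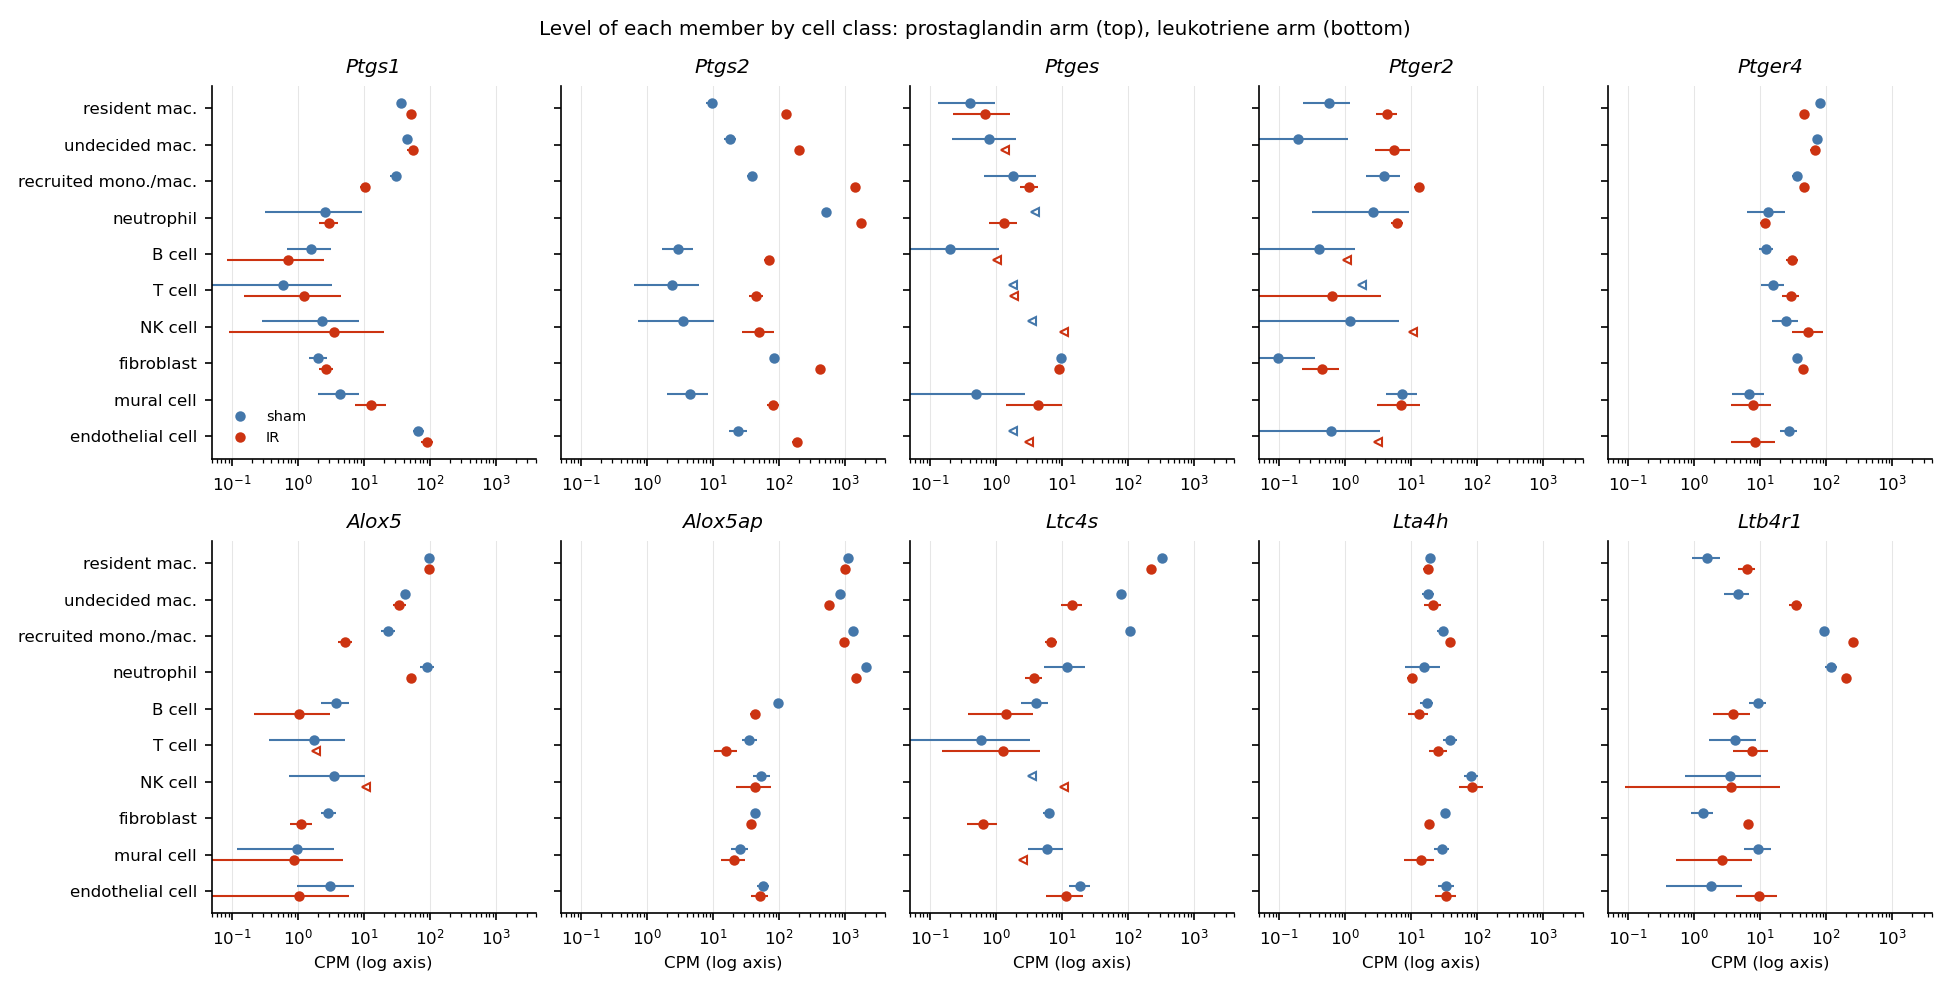
Level of each member in 10 cell classes, in CPM on a log axis, for sham (blue) and IR (red). Points are the class level, lines the exact Poisson 95% interval, and open triangles mark classes without a UMI, drawn at the level of 3 UMIs. Ptgs2 in IR stands to the right of sham in all 10 classes, and Alox5ap is highest in the 4 myeloid classes in both libraries.

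Ptgs2 was the member with the largest difference between the libraries, with 2708 UMIs in sham (46.5 CPM of the library) and 60115 in IR (808 CPM). The cells that held these UMIs differed as well. In sham, fibroblasts held 63.3% of all Ptgs2 UMIs, neutrophils 14.4% and macrophages/monocytes 12.5%. In IR, neutrophils held 39.5%, macrophages/monocytes 34.7% and fibroblasts 17.4%. Neutrophils supplied 18.2% of all UMIs in IR and 1.31% in sham.

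Per class, Ptgs2 was highest in neutrophils in both libraries, at 511 CPM (95% interval 461 to 564) in sham and 1753 CPM (1731 to 1776) in IR, 3.43-fold apart. In recruited monocytes/macrophages it stood at 39.0 CPM (32.5 to 46.3) in sham and 1408 CPM (1388 to 1428) in IR, a 36.1-fold difference. Resident macrophages had 9.67 CPM (8.0 to 11.6) and 129.6 CPM (122 to 138). All 3 myeloid classes were thus higher in IR, and the intervals of sham and IR do not overlap in any of them. Among stromal cells, fibroblasts had 82.9 CPM in sham and 423 CPM in IR (log2 ratio 2.35, 2.28 to 2.43). Endothelial cells had 24.2 and 186 CPM, and 10 of the 111 endothelial cells in IR held 89.8% of their 177 Ptgs2 UMIs. In mural cells of IR, 10 of 175 cells held 84.0% of 94 UMIs. The summed neutrophil markers were at 196 CPM in endothelial cells of sham and 2267 CPM in IR, and at 953 and 1551 CPM in mural cells. In IR these are 1.74% and 1.19% of the neutrophil level, which for Ptgs2 comes to 30.6 and 20.9 CPM, and 186 and 81.6 CPM were measured. In mural cells of sham, the neutrophil gene S100a9 made up 107 of the 953 CPM, and in neutrophils of sham 88881 of 155769 CPM. The mural sum thus had another make-up than that of neutrophils, and its source was not tested. In resident macrophages the neutrophil markers were at 152 CPM in sham and 829 CPM in IR. The IR value is 0.638% of the neutrophil level, which for Ptgs2 comes to 11.2 CPM, and 129.6 CPM was measured. There 10 of 664 cells held 34.8% of the 933 Ptgs2 UMIs. The values derived from the neutrophil level count neutrophils as the only source of free RNA. In IR, neutrophils held 39.5% of all Ptgs2 UMIs and macrophages/monocytes 34.7%. The part of free RNA in the measured values was not tested.

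Lymphocytes, in which Ptgs2 is little known, also gave higher values in IR. B cells had 2.98 CPM in sham and 69.8 CPM in IR, T cells 2.39 and 45.5 CPM, and NK cells 3.55 and 50.3 CPM. The neutrophil markers moved with these values. All 12 of them had UMIs in the B cells of both libraries, and their summed level was 152 CPM in sham and 1360 CPM in IR, 0.0976% and 1.05% of the level in neutrophils. At 1.05% of the neutrophil level, Ptgs2 would stand at 18.3 CPM in B cells of IR. For every 1000 UMIs of S100a9, an abundant neutrophil gene, there were 27.4 Ptgs2 UMIs in neutrophils of IR, 107 in B cells and 5903 in recruited monocytes/macrophages. In NK cells of IR the neutrophil markers stood at 2.94% of the neutrophil level, which for Ptgs2 comes to 51.6 CPM, and 50.3 CPM was measured from 14 UMIs. The values derived from the neutrophil level again leave out free RNA from other classes. The part of free RNA in the lymphocyte values was not tested. The intervals of Ptgs2 in recruited and resident macrophages, neutrophils, fibroblasts and endothelial cells of IR lie above that of B cells.

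Thinned to 1000 UMIs, 49.0% (46.0% to 52.0%) of recruited monocytes/macrophages in IR had a Ptgs2 UMI and 1.5% in sham, against 79.5% and 10.9% at full depth. Among neutrophils the thinned share was 62.8% in IR and 34.9% in sham, and among fibroblasts 19.2% and 5.90%. Among resident macrophages it was 9.12% in IR and 0.774% in sham. B cells, the reference class, had 4.75% in IR and 0 of 1215 in sham (interval up to 0.303% of thinned cells). Their median depths before thinning were 3387 and 2433 UMIs. At full depth, 15.2% of B cells in IR and 0.650% in sham had a Ptgs2 UMI. The higher level of Ptgs2 in IR was therefore accompanied by a larger share of cells with a UMI in each of these myeloid and stromal classes.

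**Figure D2:**
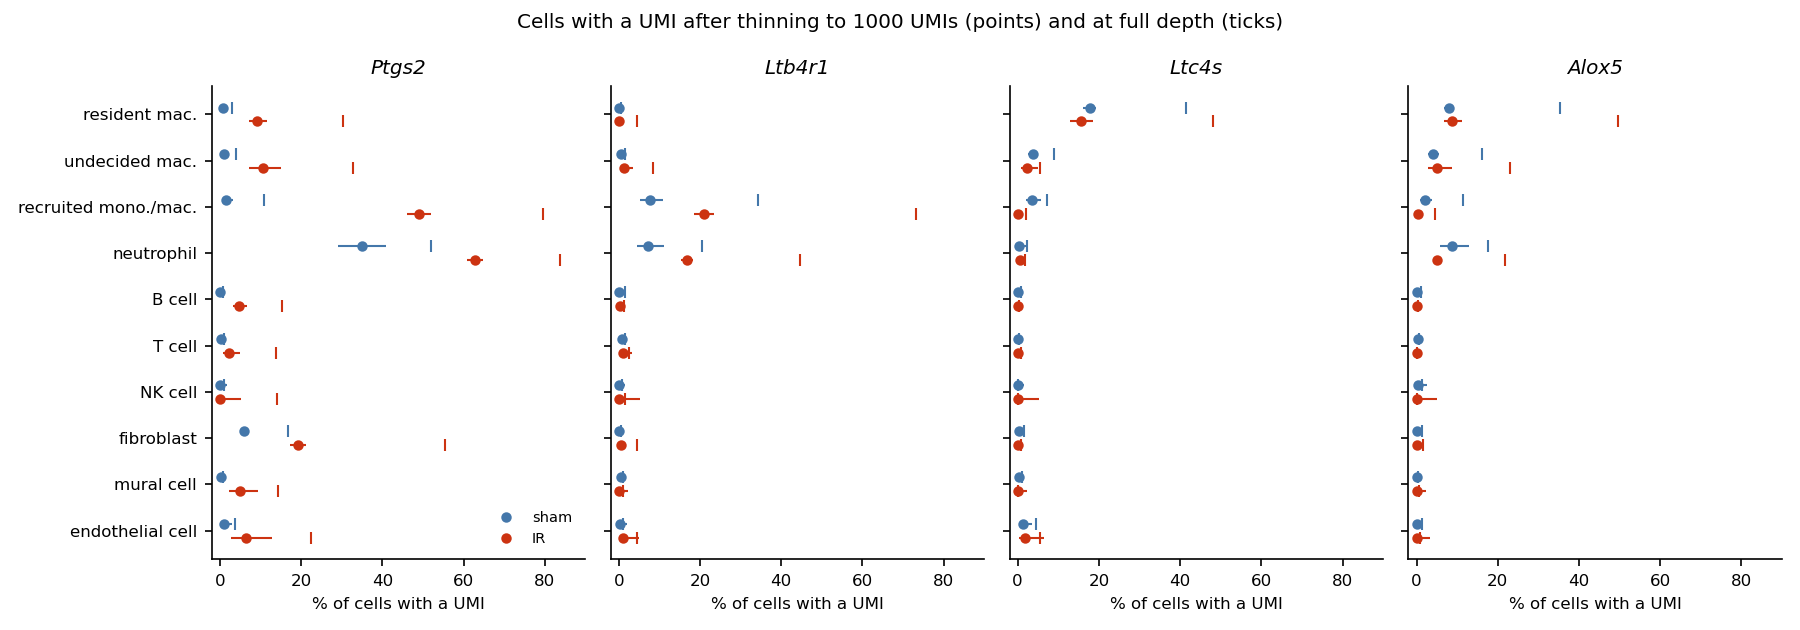
Percent of cells with at least 1 UMI of Ptgs2, Ltb4r1, Ltc4s and Alox5 in each class, for sham (blue) and IR (red). Points show cells thinned to 1000 UMIs with exact Clopper-Pearson 95% intervals and ticks the share at full depth; Ptgs2 and Ltb4r1 extend furthest to the right in recruited cells and neutrophils of IR, and Ltc4s in resident macrophages.

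Ptgs1, the constitutive cyclooxygenase, had another distribution. Among the classes compared it was highest in endothelial cells, at 66.7 CPM (54.8 to 80.3) in sham and 90.6 CPM (72.5 to 112) in IR, where 10 of 111 cells held 77.9% of the 86 UMIs. Mesothelial cells, too few to compare, had 177 CPM in sham and 718 CPM in IR. Undecided macrophages (44.6 and 54.7 CPM) and resident macrophages (36.5 and 52.7 CPM) followed, and together the macrophages/monocytes held 71.9% of Ptgs1 UMIs in sham and 66.1% in IR. Neutrophils had 2.62 CPM in sham (0.317 to 9.46, from 2 UMIs) and 2.95 CPM in IR, where fibroblasts had 2.03 and 2.67 CPM. The class with the most Ptgs2 thus had little Ptgs1, at rank 7 of the 12 classes compared in both libraries. Its interval overlaps those of neighbors in the order, so the rank is not settled.

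Ptges, the inducible PGE2 synthase, was sparse, with 223 UMIs in the sham library and 450 in IR. Fibroblasts held 90.1% of them in sham and 48.9% in IR, and their level was 9.72 CPM (8.42 to 11.2) and 8.91 CPM (7.77 to 10.2). Another 141 of the 450 UMIs of IR lay in 4 mesothelial cells, which had 0 in sham. The fibroblast intervals overlap, although Ptgs2 was 5.10-fold apart in the same cells. Recruited monocytes/macrophages had 1.83 CPM in sham and 3.18 CPM in IR. In IR, 97 of the 171 fibroblasts with a Ptges UMI also had a Ptgs2 UMI (56.7%), close to the 55.5% of all fibroblasts with a Ptgs2 UMI.

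Among the PGE2 receptors, Ptger4 was the more abundant by UMIs, 2539 in sham and 2893 in IR against 49 and 374 for Ptger2. Resident macrophages had 79.3 CPM (74.4 to 84.5) of Ptger4 in sham and 46.4 CPM (41.6 to 51.7) in IR. In recruited cells Ptger4 was at 36.2 CPM (30.0 to 43.3) and 46.8 CPM (43.3 to 50.6), so the classes differed in sham and had nearly the same level in IR. Fibroblasts had 35.9 and 44.8 CPM, and neutrophils 13.1 and 11.9 CPM. Ptger2 was highest in recruited cells of IR, with 180 UMIs and a log2 ratio of 1.72 (0.91 to 2.65) to the 3.96 CPM of sham. Resident macrophages had 0.574 CPM of Ptger2 in sham and 4.31 CPM in IR. Mural cells, with 7.38 and 6.95 CPM, were the only class of the 10 plotted in which Ptger2 exceeded 3.96 CPM in sham.

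In the leukotriene arm, Ltc4s was a gene of macrophages, which held 90.6% of its 5213 UMIs in sham and 92.4% of its 1899 UMIs in IR. Resident macrophages had 326 CPM (316 to 337) in sham and 226 CPM (215 to 237) in IR. Recruited cells had 106 CPM (95.1 to 118) in sham and 6.94 CPM (5.62 to 8.47) in IR, the largest difference toward lower values among members with over 100 UMIs in a class of sham. That sham value rested on few cells. Among the 404 recruited cells of sham, 13 cells with a UMI of Alox15, the gene of 12/15-lipoxygenase, held 261 of the 348 Ltc4s UMIs and 63 of the 100 Ptgs1 UMIs. Without the Alox15 cells, Ltc4s in recruited cells was 28.7 CPM in sham and 4.75 CPM in IR.

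The cells with an Alox15 UMI numbered 43 among the macrophages/monocytes of sham and 5 in IR, with 1368 and 111 Alox15 UMIs. In sham they had 1063 CPM of Ltc4s, 258 CPM of Ptgs1 and 99.6 CPM of Ptgs2, against 203, 30.5 and 13.8 CPM in the other macrophages/monocytes. In sham, 9 of them were resident (0.407% of that class), 13 recruited (3.22%) and 21 undecided (2.05%), and all 5 in IR were recruited. The choice of these cells was made after their values were seen.

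Alox5 was highest in resident macrophages, at 96.2 CPM (90.8 to 102) in sham and 95.7 CPM (88.7 to 103) in IR. Its level in resident cells was thus nearly the same in both libraries. Neutrophils had 91.7 CPM (71.5 to 116) in sham and 52.7 CPM (48.9 to 56.7) in IR. In recruited cells it was 23.4 CPM in sham and 5.20 CPM in IR, a log2 ratio of -2.17 (-2.65 to -1.69). Thinned, 8.81% of resident macrophages in IR had an Alox5 UMI and 0.275% of recruited cells, with 0 of 695 B cells (interval up to 0.529% of thinned cells). At full depth, 4.53% of recruited cells and 0.418% of B cells in IR had an Alox5 UMI, at median depths of 12558 and 3387 UMIs. Outside the myeloid classes, no class plotted exceeded 3.78 CPM.

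Alox5ap, whose product presents arachidonic acid to 5-lipoxygenase, was the most abundant member in every macrophage class of sham and among the widest spread in myeloid cells. It was highest in neutrophils, with 2065 CPM (1964 to 2169) in sham and 1476 CPM (1456 to 1497) in IR. Recruited cells had 1327 and 976 CPM, and resident macrophages 1111 and 1013.5 CPM. Unlike Alox5, it did not separate resident from recruited cells. B cells had 97.9 CPM in sham and 43.5 CPM in IR, below every myeloid class of the same library.

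Lta4h, the LTA4 hydrolase, was the most evenly spread member. It was highest in NK cells, at 81.6 CPM (63.5 to 103) in sham and 82.6 CPM (52.3 to 124) in IR, from 69 and 23 UMIs. The other 9 classes plotted lay between 15.7 and 38.8 CPM in sham and between 10.3 and 38.7 CPM in IR, most with overlapping intervals between neighbors in the order. Neutrophils had the lowest value of these in both libraries, 15.7 CPM (8.12 to 27.5, from 12 UMIs) and 10.3 CPM (8.68 to 12.2). Both intervals overlap those of B cells. Fibroblasts had 32.8 CPM (30.4 to 35.3) in sham and 19.0 CPM (17.3 to 20.8) in IR.

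Ltb4r1 had its highest levels in neutrophils and recruited cells. Neutrophils had 118 CPM (94.8 to 145) in sham and 202 CPM (194 to 209) in IR. Recruited cells had 92.5 CPM (82.4 to 104) and 258 CPM, a log2 ratio of 1.48 (1.31 to 1.66). Recruited cells held 49.1% of the 7272 Ltb4r1 UMIs of the IR library and neutrophils 37.6%, and 40.3% and 11.9% of the 754 UMIs of the sham library. Resident macrophages had 1.56 and 6.25 CPM, below the 9.15 CPM of B cells in sham and close to their 3.86 CPM in IR. Thinned, 21.0% of recruited cells in IR had an Ltb4r1 UMI, 16.8% of neutrophils, 0.152% of resident macrophages and 0.288% of B cells. Of the 859 macrophages/monocytes of IR with an Ltb4r1 UMI, 718 had a Ptgs2 UMI (83.6%), where 57.4% of all macrophages/monocytes and 79.5% of recruited cells did. Among neutrophils of IR, 86.6% of those with an Ltb4r1 UMI had a Ptgs2 UMI, close to the 83.6% of all neutrophils. Of the 355 macrophages/monocytes of IR with an Ltc4s UMI, 112 had a Ptgs2 UMI (31.5%), close to the 30.4% of all resident macrophages.

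Setting IR against sham across all members, a gene was counted as measured with 10 UMIs over both libraries in a class and as called with a 2-fold difference. Over all macrophages/monocytes 5 of 10 members were called, against 26.7% of all measured genes. Ptgs2, Ptges, Ptger2 and Ltb4r1 were higher (8.67% of all genes were) and Ltc4s lower (18% were), and these sums mix resident and recruited cells in unequal numbers. In recruited cells 6 of 10 measured members were called, where 29.2% of all measured genes were. Ptgs2, Ptger2 and Ltb4r1 were higher in IR (9.62% of all genes were) and Ptgs1, Alox5 and Ltc4s lower (19.6% were). The median log2 ratio was 0.37 over the members and -0.24 over all genes. The call of Ptgs1 in recruited cells depended on how cells were chosen. Its log2 ratio was -1.55 (10.4 CPM in IR against 30.4 CPM in sham), -0.86 without the Alox15 cells and -0.21 with classes from Leiden clusters. Ltc4s stayed lower at -2.59 without the Alox15 cells and -1.13 with Leiden classes, compared with -3.93.

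In resident macrophages 3 of 10 members were called, against 22% of all genes (5 with at most 2500 genes per barcode). Ptgs2, Ptger2 and Ltb4r1 were higher in IR (9.43% of all genes were) and none was lower by 2-fold (12.6% were), with Ltc4s at -0.53 and Ptger4 at -0.77 on the log2 scale. In neutrophils 3 of 10 were called, against 30.1% of all genes. These were Ptgs2, Ptger2 from 2 UMIs in sham (log2 ratio 1.24, -0.66 to 4.31), both higher (9.39% of all genes were), and Ltc4s from 9 UMIs, which was lower (20.7% were). The median over all genes there was -0.36. The share of called members in resident macrophages and neutrophils was near or at that of all genes.

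In fibroblasts 5 of 10 members were called, against 29.2% of all genes. Ptgs2, Ptger2 and Ltb4r1 were higher (10.7% of all genes were) and Alox5 and Ltc4s lower (18.5% were), and apart from Ptgs2 these stood at or below 6.6 CPM in both libraries. Alox5 in fibroblasts was not lower once barcodes with the highest doublet scores were left out (log2 ratio 0.30). The 71 fibroblasts with an Ltb4r1 UMI in IR had a median of 19121 UMIs, compared with 13899 in the class. In endothelial cells 3 of 7 measured members were called (20.1% of all genes), with Ptgs2 and Ltb4r1 higher (8.25% were), the latter from 3 UMIs in sham and 9 in IR, and Ptger4 lower (11.9% were), at 27.3 CPM in sham and 8.43 CPM in IR.

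In mural cells 5 of 8 members were called (19.7% of all genes), Ptgs1 and Ptgs2 higher (7.89% were) and Ltc4s, Lta4h and Ltb4r1 lower (11.8% were). Of these, only Lta4h had over 19 UMIs in sham. The mural count was 3 with a 10% mitochondrial limit and with Leiden classes, and 2 with 30 UMIs needed for a measured gene. In B cells 7 of 8 were called, against 13.7% of all genes. Alox5ap, Alox5, Ltc4s, Ltb4r1 and Ptgs1 were lower in IR (8.57% of all genes were), and Ptgs2 and Ptger4 higher (5.11% were). The 5 that were lower stood at 1.59 to 97.9 CPM in sham, and each of them was higher in IR under at least 1 alternative processing, so their direction in B cells is not settled. With at most 2500 genes per barcode 2 members were called in B cells. T cells gave 2 of 5 called (14.1% of all genes), Ptgs2 higher (6.99%) and Alox5ap lower (7.14%). With at most 2500 genes per barcode the log2 ratio of Alox5ap in T cells was 0.26 and 1 member was called, as it was without the highest doublet scores. NK cells gave 2 of 4 (28.8%), Ptgs2 and Ptger4, both higher (17.9%, with 10.9% of all genes lower). The NK count was 1 with a stricter margin and with 30 UMIs needed for a measured gene. Undecided macrophages gave 4 of 9 (23.8%), with Ptgs2, Ptger2 and Ltb4r1 higher (12%) and Ltc4s lower (11.9%). In the undecided cells of sham, 21 cells with an Alox15 UMI held 307 of the 395 Ltc4s UMIs, and without them Ltc4s was 18.4 CPM in sham against 14.1 CPM in IR, short of a 2-fold difference. Among the smallest classes, cardiomyocytes gave 2 of 3 (35.7%), Ptgs2 and Ltb4r1 higher (11.5%, with 24.2% lower). Ltb4r1 there rested on 2 UMIs in sham and 18 UMIs in 4 of 56 cells of IR. The cardiomyocyte count was 1 without the highest doublet scores and with 30 UMIs needed for a measured gene. Erythroid cells gave 2 of 5 (33.2%), Ptgs2 and Ptger4 higher (20.8%, with 12.4% lower). In cardiomyocytes of IR the neutrophil markers stood at 6.79% of the neutrophil level, which for Ptgs2 comes to 119 CPM, and 221 CPM was measured, with 98.2% of the 55 UMIs in 10 cells. In erythroid cells of IR the neutrophil markers stood at 3.99% of the neutrophil level, which for Ptgs2 comes to 70.0 CPM. There 296 CPM of Ptgs2 was measured, with 85.9% of the 92 UMIs in 10 cells. Here too neutrophils are the only source counted, and the part of free RNA was not tested in either class.

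Recruited and resident cells were then compared within each library, which does not rest on the comparison of libraries. In IR, 8 of 10 members were called, where 34.4% of all measured genes were, 5 higher in recruited cells (9.44% were) and 3 lower (25% were). In sham 7 of 10 were called, where 27.9% were, 4 higher (10.5%) and 3 lower (17.4%). Higher in recruited cells were Ltb4r1, by 59.4-fold in sham (log2 ratio 5.89, 5.22 to 6.64) and 41.3-fold in IR (5.37, 4.95 to 5.83), and Ptgs2, by 4.03-fold in sham and 10.9-fold in IR. Ptger2 was 6.90-fold and 3.02-fold higher, and Ptges 4.46-fold and 4.58-fold, the latter from 11 UMIs in sham. Lta4h was 1.56-fold higher in sham and 2.12-fold in IR. The receptor for LTB4 and the inducible cyclooxygenase thus stood on the recruited side in both libraries.

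Higher in resident cells were Ltc4s, by 3.08-fold in sham and 32.6-fold in IR, and Alox5, by 4.11-fold in sham and 18.4-fold in IR. For Ptgs1 the log2 ratio of recruited to resident was -0.26 (-0.59 to 0.06) in sham and -2.34 in IR. Without the Alox15 cells, the sham ratio of Ltc4s moved from -1.62 to -3.48 and that of Ptgs1 from -0.26 to -1.47. With Leiden classes these sham ratios were -4.14 and -2.60, and with at most 2500 genes per barcode -3.79 and -2.65. The ratio of Ltc4s in IR was -5.03, and -7.06 with at most 2500 genes. Ptger4 was 2.19-fold higher in resident cells of sham and at 0.01 (-0.18 to 0.21) in IR. Alox5ap was at 0.26 in sham and -0.05 in IR. In both libraries Alox5 and Ltc4s were thus higher in resident cells and Ptgs2 and Ltb4r1 in recruited cells, with Alox5ap near the same level in both.

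**Figure D3:**
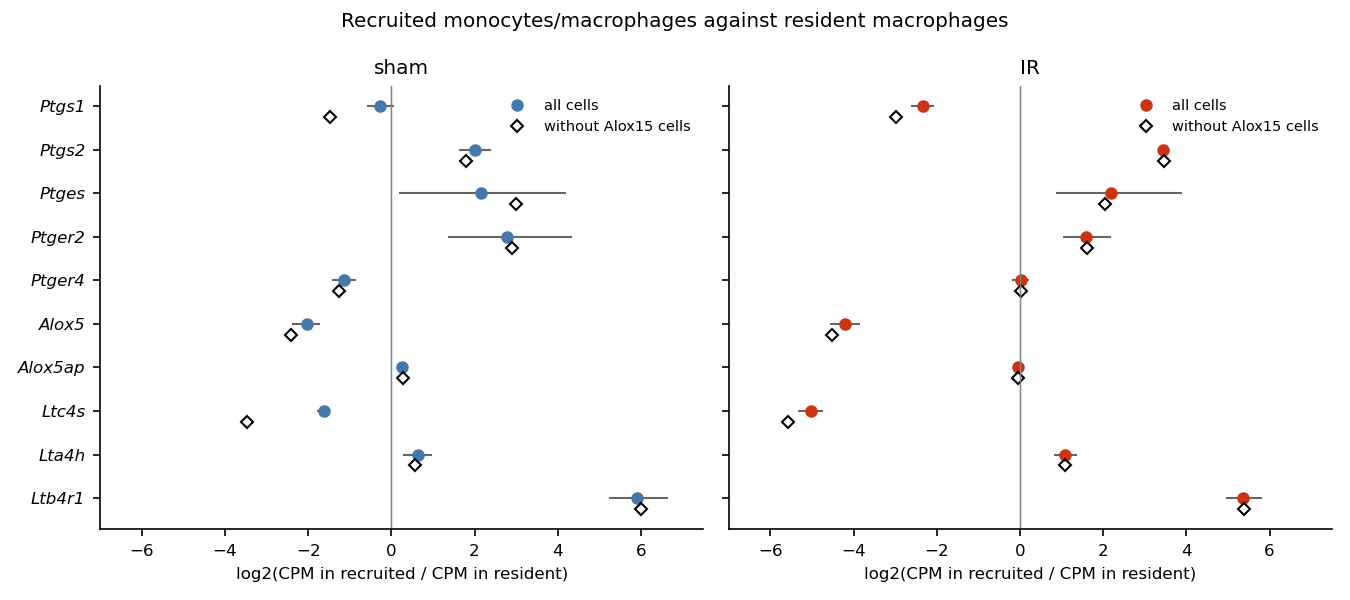
Log2 ratio of CPM in recruited monocytes/macrophages to CPM in resident macrophages for each member, in sham (left) and IR (right). Filled points with exact conditional 95% intervals use all cells, open diamonds leave out macrophages/monocytes with an Alox15 UMI; Ltb4r1 lies near 5 to 6 in both, and Ltc4s and Alox5 lie on the left.

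Around the members, 42 further genes of the pathway were examined. In recruited cells, 25 were measured, 3 were past 2-fold higher in IR and 8 lower, where 9.62% of all measured genes were higher and 19.6% lower. The 3 were Pla2g4a, the cytosolic phospholipase A2 that releases arachidonic acid (15.5 CPM in sham and 48.1 CPM in IR), Pla2g7, which hydrolyzes platelet-activating factor (136 and 422 CPM), and Abcc1, an exporter of LTC4 (8.83 and 42.8 CPM). Among the 8 were Alox15 (163 and 8.02 CPM) and Hpgd, which inactivates prostaglandins (159 and 46.4 CPM). In resident macrophages 27 were measured, 6 were higher and 6 lower (9.43% and 12.6% of all genes). Pla2g4a was at 29.1 and 74.6 CPM there, Pla2g7 at 179 and 376 CPM, Abcc1 at 29.5 and 84.3 CPM, and Dpep2, a dipeptidase of cysteinyl leukotrienes, at 64 and 160.2 CPM. The phospholipases Pla2g4a and Pla2g7 and the exporter Abcc1 were thus higher in IR on both sides of the macrophage split.

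In fibroblasts 31 of the 42 were measured, 6 were higher and 8 lower (10.7% and 18.5% of all genes). Ptgis, the prostacyclin synthase, had the highest level among the prostanoid synthases, with 295 CPM in sham and 629.9 CPM in IR. Slco2a1, a prostaglandin transporter, was at 1.93 CPM in sham and 68.5 CPM in IR (log2 ratio 5.15, 4.70 to 5.64), and Hpgd at 17.5 and 3.56 CPM. In neutrophils 28 were measured, 3 were higher and 7 lower (9.39% and 20.7% of all genes), all 7 from fewer than 60 UMIs in sham, among them Hpgd at 74.7 and 7.52 CPM. Cyp4f18, which inactivates LTB4, was at 464 and 317 CPM, and Pla2g7 at 477 and 413 CPM. The receptor of cysteinyl leukotrienes Cysltr1 was highest in resident macrophages of sham, at 77.8 CPM and 46.4 CPM in IR, and stood at 44.7 and 59.4 CPM in recruited cells. Ptgir, the prostacyclin receptor, was highest in mural cells (31.5 and 46.9 CPM) and fibroblasts (32.4 and 36.7 CPM).

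The genes most like each member over 24 points, from 12 classes and both libraries, were taken by Pearson correlation of log2(CPM + 1) among 12980 genes. These points share libraries and classes, and the values are a description. Alox5ap was closest to Spi1 (0.97), which encodes the myeloid transcription factor PU.1, and Mpeg1 (0.97). Ltb4r1 was closest to Hp (0.91), which was also one of the markers of recruited cells, and Sirpb1c (0.90). Ltc4s was closest to Pltp (0.90) and Hpgd (0.90). Ptgs2 was closest to the cystine transporter gene Slc7a11 (0.90) and Riok3 (0.87), and Alox5 to Lrrc25 (0.87) and C5ar2 (0.87). Ptgs1 was closest to Dennd2c (0.89) and Pparg (0.86), and Ptges to Bdh2 (0.87) and Gm10600 (0.86). Lta4h (AW112010, 0.80, and Serpinb9, 0.78), Ptger4 (Gas7, 0.77, and RP23-366O14.5, 0.77) and Ptger2 (4930589L23Rik, 0.76, and Gk, 0.74) had no gene above 0.80.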

How the data were processed

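Left ventricular cells were measured by 10x droplet sequencing. The authors deposited raw UMI counts per gene and barcode, 1 matrix per condition, made with Cell Ranger on mm10 (the matrix header gives version 3.1.0). All barcodes share a suffix, so the 4 samples of a condition cannot be separated. Libraries held 58653308 UMIs in 11620 barcodes (sham) and 75033226 in 8539 (IR).

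Barcodes with at least 200 genes and at most 30% mitochondrial UMIs were kept. The study's upper limit of 2500 genes was not applied, since it leaves 9777 and 4880 barcodes, fewer than the study states, and removes 67.0% of IR macrophages/monocytes and 11.2% of sham ones. It is an alternative. A class needed a mean scaled marker score of 0.2 and a margin of 0.1 over the next, from 139 markers (4 missing). Scores, margins and the resident/recruited division were set after the data were seen, and doublets were not removed beyond the margin. Classes with fewer than 50 cells in a library were left out of comparisons.

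The members and lists were chosen with earlier results of these data known. Named genes were all members, the 2 genes most like each, and listed pathway genes past 2-fold or highest in their group. Where a library had 0 UMIs, its level was replaced by that of 3 UMIs and the ratio given as a bound. No test between conditions was possible with 1 library each. Ratio and interval code was tested on simulated counts. Promoters came from RefSeq and coordinates from GENCODE M21. Analyses used Python 3.11.15, numpy 2.4.6, scipy 1.17.1, pandas 2.3.3, scikit-learn 1.9.0, leidenalg 0.10.2 and matplotlib 3.10.9. Tried as alternatives were the gene limit, a 10% mitochondrial limit, Leiden classes, a stricter margin, doublet scores, another class total, equal weight per cell, 30 UMIs, thinning and leaving out Alox15 cells.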

Additional observations from a re-analysis of the deposited data

Results flagged for a closer look

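For 3 members, 1 class was past 2-fold higher in IR and another past 2-fold lower, and the difference was not tested. Ptgs1 was higher in IR in mural cells (log2 ratio 1.56, from 9 UMIs in sham and 15 in IR) and lower in recruited monocytes/macrophages (-1.55). Ptger4 was higher in erythroid cells (2.50, from 3 and 29 UMIs) and lower in endothelial cells (-1.69, from 45 and 8 UMIs). Ltb4r1 was higher in undecided macrophages (2.93) and lower in mural cells (-1.84, from 19 and 3 UMIs). In undecided macrophages of IR, 10 cells held 82.9% of the 76 Ltb4r1 UMIs. In erythroid cells of IR, 10 cells held 93.1% of the 29 Ptger4 UMIs. The median of neutrophil markers there was 16.2 UMIs per 10000, beside 17.8 for the erythroid markers. Leiden classes gave no erythroid cells in either library.

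Classes too small for the comparisons held members at levels above every compared class of the same library. In 21 dendritic cells of IR, Ptger4 was at 141 CPM from 47 UMIs. Ptgs1 was at 177 CPM in 24 mesothelial cells of sham and at 718 CPM in 4 mesothelial cells of IR. Ptges was at 1533 CPM in those 4 cells, from 141 UMIs, with 0 UMIs in the mesothelial cells of sham, and it was among the 10 leading genes of that class.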

How the results depend on the processing

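No paired analysis was possible because the barcodes carry no replicate numbers, and for the same reason no replicate could be left out. Of 49 called log2 ratios of IR to sham, the direction was the same in 49 of 49 with another class total, 48 of 48 with a 10% mitochondrial limit, with a stricter margin and with every cell weighted the same, 45 of 47 with Leiden classes, 45 of 48 without the highest doublet scores and 37 of 42 with at most 2500 genes. The 49 cover all macrophages/monocytes and also their resident, recruited and undecided divisions, so these cells enter more than once. Past 2-fold stayed all 49 with another class total, 47 of 49 without Alox15 cells, 45 with a stricter margin, 44 with the mitochondrial limit, 39 with equal weight, 38 with doublet scores, 37 with Leiden classes and 34 with at most 2500 genes. The 15 called log2 ratios of recruited to resident cells had the same direction in all of these, and 13 (2500 genes) to 15 of them stayed past 2-fold. The count of members called moved in B cells from 7 to 2 (2500 genes, equal weight), 3 (Leiden classes, doublet scores) and 4 (10% mitochondrial limit, 30 UMIs), in mural cells from 5 to 3 (10% mitochondrial limit, Leiden classes) and 2 (30 UMIs), in resident macrophages from 3 to 5 (2500 genes), and from 2 to 1 in T cells (2500 genes, doublet scores), NK cells (stricter margin, 30 UMIs) and cardiomyocytes (doublet scores, 30 UMIs). The count in recruited cells lay between 5 and 7, against 6, although Ptgs1 was no longer past 2-fold there without Alox15 cells (-0.86), with Leiden classes (-0.21) or with at most 2500 genes (-0.16). In undecided macrophages it was 3 or 4, and Ltc4s was lost without Alox15 cells. In fibroblasts it was 4 to 6. Reversed in B cells were Ptgs1 and Alox5 (both 0.65) without the highest doublet scores, Alox5 (0.38), Alox5ap (0.29), Ltc4s (0.38) and Ltb4r1 (0.65) with at most 2500 genes, and Ltc4s (0.68) and Ltb4r1 (1.77) with Leiden classes. Reversed elsewhere were Alox5ap in T cells with at most 2500 genes (0.26) and Alox5 in fibroblasts without the highest doublet scores (0.30). The cause was not tested. Leaving out cells with an Alox15 UMI was chosen after seeing the data. Thinning moved 202 of 260 shares of cells beyond their interval, since shares depend on depth.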
